A study of Mus musculus with 6 samples.

Results

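Reference genes are the transcripts against which other transcripts are scaled in PCR and on arrays, on the premise that their own level does not move with the condition. The 28 probes described here, of 45281 on the array, measure 9 such genes and 18S ribosomal RNA. They were chosen by symbol: every probe named RN18S (3 probes), ACTB (5), GAPDH (1), H3F3A (2), H3F3B (2), HPRT1 (3), TBP (4), B2M (3), PPIA (2) or YWHAZ (3). The list was drawn up with the values of these arrays in view, in particular the high readings of RN18S and of one ACTB probe on 3 of the 6 arrays. Those readings are therefore given as a description with no test.

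The RNA came from mGLUTag cells, an immortalized mouse model of the L-cell, the enteroendocrine cell that releases glucagon-like peptide-1 (GLP-1). All samples were held in low serum, synchronized with forskolin, which raises cAMP, and returned to growth medium. Total RNA was taken after 4 h (n = 3), when the clock gene Arntl was taken to be at its peak, and after 16 h (n = 3), when it was taken to be at its trough. Arntl encodes the transcription factor BMAL1. There was no unsynchronized group, and all cells were of this 1 line. Whether the samples of a time point came from separate cultures is not stated, so that p-values measure the spread between these samples, which may be technical.

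The genes have unlike tasks in the cell. RN18S is the RNA of the small ribosomal subunit, made by RNA polymerase I and, in its mature form, without a poly(A) tail. ACTB encodes β-actin of the cytoskeleton, GAPDH an enzyme of glycolysis, and HPRT1 an enzyme of purine salvage. H3F3A and H3F3B are separate genes for the same protein, the replication-independent histone H3.3. TBP binds promoters as part of the general transcription machinery, B2M is the light chain of MHC class I, PPIA is the prolyl isomerase cyclophilin A, and YWHAZ is a 14-3-3 adaptor protein. The study used H3f3a as the control gene for PCR in mGLUTag cells, and Actb in its PCR of sorted cells.

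H3F3A and H3F3B encode one protein. The bright probe of H3F3A was higher on the 3 arrays high in 18S, as were 10.2% of the probes detected on all arrays. The dim H3F3A probe and the bright H3F3B probe overlapped. The difference between H3F3A and H3F3B was not tested, and nothing particular to these genes is read from it. To show how these genes differ in sequence, the 250 bases before their start sites are given from RefSeq (GRCm38.p6). The window of H3f3a is chr1:180813606-180813855 and that of H3f3b is chr11:116024505-116024754, and both genes are on the minus strand. Each run is printed 5′ to 3′ on the gene's strand, and capitals mark the letters CCAAT or TATAAA on either strand.
H3f3a: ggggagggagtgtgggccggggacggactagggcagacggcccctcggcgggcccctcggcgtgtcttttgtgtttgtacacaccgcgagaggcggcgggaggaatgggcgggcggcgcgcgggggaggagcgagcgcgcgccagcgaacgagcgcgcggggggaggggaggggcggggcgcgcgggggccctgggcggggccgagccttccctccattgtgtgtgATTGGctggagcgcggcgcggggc
H3f3b: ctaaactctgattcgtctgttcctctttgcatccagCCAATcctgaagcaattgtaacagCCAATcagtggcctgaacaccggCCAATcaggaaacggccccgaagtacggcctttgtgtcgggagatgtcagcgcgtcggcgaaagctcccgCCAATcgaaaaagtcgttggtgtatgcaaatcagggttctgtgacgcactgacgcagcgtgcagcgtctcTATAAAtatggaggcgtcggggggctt

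The H3f3b window holds CCAAT 4 times and TATAAA once, and the H3f3a window holds CCAAT once, read on the opposite strand. Windows of 250 bases before and 50 after the start were given for 7 of the 9 protein-coding genes. CCAAT was found in 3 of these 7 (B2m, H3f3a and H3f3b) and in 37.4% of all 32851 windows of that length. TATAAA was found in 3 (B2m, H3f3b and Ppia) and in 13.6% of all windows. Neither the E-box CACGTG, which the clock factors BMAL1 and CLOCK bind (7.15% of all windows), nor the cAMP response element TGACGTCA (1.79%) was found in any of the 7. A match to these letters is a description and not a binding site.

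The deposited values are intensities on a linear scale with background subtracted, not scaled between arrays. From the values below 0 of each array a noise limit was derived, which lay between 9.2 and 14 intensity units. Between 16964 and 17847 probes of an array were above it, and 14941 were above it on all 6. The 4 h arrays were brighter, with a mean intensity over all probes of 322 ± 31.3 (SD, n = 3) against 236 ± 17.0 (SD, n = 3) at 16 h. Of the 14941 probes, 98.2% were brighter on average at 4 h, with a median ratio of 1.46. Among L-cell and enteroendocrine markers, Gcg, Chga, Scgn, Insl5 and Neurod1 were above the limit on all 6 arrays, Pcsk1 on 1 and Pyy on none. Of the markers of other cell types, Ptprc, Alb, Sftpc and Ins2 passed the limit on no array, Pecam1 on 1 (23), and the fibroblast marker Col1a1 on all 6 (17.2 to 42).

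Of the 28 probes, 23 were above the noise limit on all 6 arrays, 3 on some and 2 on none. The 2 on none were B2M ILMN_2670561, with intensities from -9 to 8.1, and YWHAZ ILMN_1242653, from -5.3 to 4.1. The 3 on some arrays were YWHAZ ILMN_2510612, above the limit only on 4 h replicate 3 at 14.5, and the ACTB probes ILMN_2588055 and ILMN_2846865.

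RN18S varied more from array to array than any other gene of the list, compared by their brightest probes. Its brightest probe, ILMN_1230073, read 600.2, 72.5 and 3138.5 on 4 h replicates 1 to 3, and 766.3, 188.1 and 55.2 on 16 h replicates 1 to 3. The highest of these is 56.9 times the lowest, and both time points hold high and low arrays. The second probe, ILMN_2450735, read 542.4, 82 and 2023.4 at 4 h and 671.4, 210.7 and 72.5 at 16 h. For ILMN_2638923 the values were 167.4, 21.8 and 850.6 at 4 h and 179.1, 39.2 and 19.3 at 16 h. All 3 probes were highest on 4 h replicate 3, then on 16 h replicate 1, then on 4 h replicate 1, and lowest on 4 h replicate 2 and 16 h replicate 3.

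The arrays did not fall into 2 tight groups by 18S. After normexp correction and quantile normalization, the mean log2 intensity of the 3 RN18S probes was 6.91 on 4 h replicate 2, 7.02 on 16 h replicate 3, 7.71 on 16 h replicate 2, 8.50 on 4 h replicate 1, 9.24 on 16 h replicate 1 and 10.57 on 4 h replicate 3. The widest step, 1.33, set 4 h replicate 3 apart from the other 5 arrays. The step between the lower 3 and the upper 3 arrays was 0.79.

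The 5 ACTB probes gave different pictures of the same gene. ILMN_1377923 read 8961, 719.4 and 7389.9 at 4 h, and 5352.9, 1025.5 and 1063.5 at 16 h, so that 4 h replicates 1 and 3 and 16 h replicate 1 were the 3 high arrays. On the normalized log2 scale the lowest of these 3 arrays was 2.01 above the highest of the others, a wider gap than the 0.93, 0.68 and 0.77 of the RN18S probes. ILMN_2617433 was high on the same 3 arrays with a smaller step. It read 2596.9, 1162.2 and 3290.2 at 4 h and 1903.6, 1286.2 and 956.9 at 16 h. Both dim probes were above the noise limit on those 3 arrays and on none of the others. ILMN_2846865 read 195.3, -4.4 and 14.9 at 4 h and 69.6, 1.6 and 3.8 at 16 h, and ILMN_2588055 read 142, -0.7 and 12.3 at 4 h and 59.4, 3 and 1.3 at 16 h. They were highest on 4 h replicate 1, and not on 4 h replicate 3 as RN18S was.

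The brightest ACTB probe by mean normalized intensity, ILMN_2698799, did not share that order. It read 5448.3, 4465.4 and 6607 at 4 h, and 3477.6, 4848.5 and 3787 at 16 h. Its lowest array was 16 h replicate 1, one of the 3 on which the other ACTB probes were high. Between ILMN_1377923 and ILMN_2698799 the ratio moved over a 10.2-fold range across the 6 arrays.

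The remaining genes were read against the 3 arrays high in RN18S and ACTB ILMN_1377923, a separation added after the data had been seen. Of the 24 probes that did not define it, 5 were higher on all 3 of these arrays than on any other, 2 were lower and 17 overlapped. Over all probes, 7.21% were higher and 6.9% lower in this sense, and 10.2% and 9.99% of the probes that passed the noise limit on all 6 arrays. Of the 5 higher probes, 3 were the ACTB probes just described, with gaps of 0.49 (ILMN_2617433), 0.17 (ILMN_2846865) and 0.15 (ILMN_2588055) on the log2 scale. The other 2 were H3F3A ILMN_3145213, with a gap of 0.17, and TBP ILMN_2626740, with a gap of 0.06. The 2 lower probes were both of B2M, with gaps of 0.12 (ILMN_2739999) and 0.06 (ILMN_1216746). Outside RN18S and ACTB, 2 of 20 probes (10%) were thus higher and 2 of 20 (10%) lower, near the shares just given for all probes, so that nothing particular to these genes is read from them. Just outside, YWHAZ ILMN_2510612 had a gap of -0.0047 and YWHAZ ILMN_2952914 one of -0.060, a negative gap being an overlap.

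With the single array that the widest step set apart, 4 of the 25 probes other than RN18S were highest on 4 h replicate 3. Over all probes, 18.1% were. The 4 were ACTB ILMN_2617433 and ILMN_2698799 and YWHAZ ILMN_2952914 and ILMN_2510612.

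H3F3A was the PCR control gene of the study in mGLUTag cells. Its bright probe, ILMN_3145213, read 7276.8, 4525.7 and 5953.9 at 4 h, and 4959.4, 3435.2 and 3595.4 at 16 h. Within each time point, the arrays high in 18S were also the higher arrays of H3F3A. The separation of this probe held under 5 of the 6 other background and normalization settings. The second H3F3A probe, ILMN_3066986, was dim, between 22.9 and 49.8, and overlapped.

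H3F3B is the other gene for histone H3.3, and its bright probe overlapped. ILMN_2648292 read 10463.3, 9064.8 and 9890.9 at 4 h, and 7705.5, 8613.4 and 6363 at 16 h. At 16 h its highest array was replicate 2, where H3F3A was lowest. After normalization the 6 arrays of H3F3B spanned 0.32 on the log2 scale, and those of H3F3A spanned 0.54.

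GAPDH had a single probe, ILMN_1377924, and also overlapped. It read 10191.3, 9802.4 and 12266.7 at 4 h, and 7486, 10105.2 and 7736.2 at 16 h. Its 2 highest arrays after normalization were 16 h replicate 2 (13.51) and 4 h replicate 3 (13.47), and its 2 lowest were 4 h replicate 1 (12.98) and 16 h replicate 1 (13.01). The same 2 arrays were highest and the same 2 among the lowest 3 for ACTB ILMN_2698799.

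HPRT1 overlapped in all 3 of its probes. The brightest, ILMN_2704499, read 16137.7, 13203.3 and 12494.1 at 4 h, and 10881.4, 9034.1 and 9798.8 at 16 h. Each 4 h array was above each 16 h array on this scale, on which most probes were brighter at 4 h. ILMN_2776552 lay between 1198.5 and 2906.3, and ILMN_2767487 between 332.7 and 750.4.

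For TBP the brightest probe, ILMN_2869461, read 463.4, 333.8 and 379.9 at 4 h, and 254.5, 287.9 and 213.9 at 16 h. Its other 3 probes lay between 80.2 and 264.8. Only ILMN_2626740 separated the 3 arrays, by a gap smaller than its SD of 0.10 over the 6 arrays. It did so under all 6 other background and normalization settings.

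For B2M, ILMN_1216746 read 1627.6, 1732.5 and 1655.5 at 4 h, and 1236.3, 1361.6 and 1190.6 at 16 h, and within 4 h its highest array was replicate 2, which was lowest in ACTB ILMN_1377923. ILMN_2739999 read 1698.9, 1612.6 and 1701.5 at 4 h and 1166.8, 1499.9 and 1125.3 at 16 h. Both probes were below on the 3 arrays in 4 of the 6 other settings.

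PPIA was far above the noise limit on every array. ILMN_1250983 read 30722.7, 26942 and 25983.6 at 4 h, and 21132.6, 20867.7 and 24308.6 at 16 h, and ILMN_1233954 lay between 21192.8 and 30942.6. Neither probe separated the 3 arrays.

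YWHAZ stood out on 1 array. ILMN_2952914 read 9759.2, 7611.9 and 11624 at 4 h, and 6746.5, 6823 and 5811.8 at 16 h. After normalization 4 h replicate 3 was at 13.38 and the other 5 arrays were between 12.84 and 12.94.

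The spread over arrays was then set beside that of other probes of like brightness. Probes that passed the noise limit on all 6 arrays were put in 5 classes by brightness, with median SDs of normalized log2 intensity over the 6 arrays of 0.122, 0.157, 0.171, 0.168 and 0.158 from dimmest to brightest. The SD was 1.68 for RN18S ILMN_1230073 and 1.44 for ACTB ILMN_1377923, both at the top of their class. Among the brightest probes of the protein-coding genes, PPIA (0.071), TBP (0.087), HPRT1 (0.10), H3F3B (0.11) and B2M (0.13) were under the median of their class. YWHAZ (0.21), ACTB ILMN_2698799 (0.22), H3F3A (0.22) and GAPDH (0.22) were above it, between the 74.5th and the 81.0th percentile. These SDs moved with the scaling of the arrays. That of PPIA was 0.071 after quantile normalization, 0.11 after cyclic loess, 0.24 after linear scaling and 0.17 after median scaling. With median scaling, which left the 4 h arrays brighter, the SD was 0.36 for H3F3A, 0.32 for YWHAZ, 0.30 for ACTB, 0.29 for TBP, 0.26 for HPRT1, 0.23 for GAPDH, 0.21 for H3F3B and 0.18 for B2M. With linear scaling it was 0.19 for HPRT1 and 0.12 for YWHAZ. Without 16 h replicate 2 the SD of HPRT1 was 0.055 and that of H3F3B 0.070, and without 4 h replicate 3 that of YWHAZ was 0.041.

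A second measure of steadiness needed no normalization. For each pair of genes, the log2 ratio of their brightest probes was taken on each array from the deposited intensities, and its SD over the 6 arrays was averaged over a gene's partners. Without RN18S, this mean SD was smallest for H3F3B (0.197), followed by B2M (0.212), YWHAZ (0.227), TBP (0.230), GAPDH (0.231), HPRT1 (0.238), ACTB (0.244) and PPIA (0.248). It was largest for H3F3A (0.298). These values have no error of their own, and steps as small as those between YWHAZ, TBP and GAPDH set no order. For RN18S it was 2.09. ACTB stands here for ILMN_2698799 alone, whose ratio to ACTB ILMN_1377923 had an SD of 1.53. The tightest pair was ACTB ILMN_2698799 with GAPDH, whose ratio had an SD of 0.10, followed by H3F3B with B2M (0.13) and HPRT1 with PPIA (0.15). PPIA thus had the smallest spread after quantile normalization but not by ratios to the other 8 genes. By ratios, the step between PPIA and ACTB was also too small to set an order.

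Probes of the same gene agreed to very different degrees. The SD over the arrays of the log2 ratio between a gene's 2 brightest probes had a median of 0.264 over 2966 genes with at least 2 probes that passed the noise limit on all 6 arrays, with quartiles of 0.167 and 0.396 and a 95th percentile of 0.645. It was 0.053 for PPIA, 0.099 for B2M, 0.18 for TBP and 0.20 for HPRT1. It was 0.27 for H3F3A and 0.36 for RN18S. H3F3B (0.81) and ACTB (1.53) were beyond the 95th percentile. The second H3F3B probe, ILMN_1231168, was dim, at 66.2, 14 and 17.1 at 4 h and 19.3, 11.5 and 15.6 at 16 h, so that its ratio rests on values close to the noise limit and on the high reading of 4 h replicate 1. For ACTB both probes were bright. GAPDH and YWHAZ had a single probe above the limit on all arrays.

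No probe of the 28 passed the test between 4 h and 16 h. In limma, fitted to all probes, 0 of the 28 passed an adjusted p of 0.05, against 0.00883% of all probes (4 of 45281), and 0 of the 28 had an unadjusted p under 0.05, against 2456 of all probes (5.42%). That count of 0 moved with the scaling, with the array left out and with a block. It was 13 of the 28 with median scaling, 16 with no between-array normalization and 4 without 4 h replicate 2. It was 1 without 4 h replicate 3 and 1 without 16 h replicate 2. With the replicate number as a block it was 1, and with the 18S separation as a block 1. The 18S block holds 4 h replicate 3 alone and is nearly the same alternative as leaving out that array. The normalized values of the time points overlapped in all 28, whereas 10.9% of all probes showed no overlap. The log2 change (4 h minus 16 h) was 0.79 (SE 0.99) for RN18S ILMN_1230073, with an adjusted p of 0.969 in limma. For H3F3A, the study's PCR control gene in mGLUTag cells, it was 0.10 (SE 0.15, adjusted p 0.974 in limma). For ACTB ILMN_2698799 it was -0.024 (SE 0.15, adjusted p 0.996), for GAPDH -0.056 (SE 0.15, adjusted p 0.984) and for H3F3B -0.017 (SE 0.092, adjusted p 0.995). The other 5 genes lay between -0.085 (B2M) and 0.16 (YWHAZ), with SEs from 0.072 (PPIA) to 0.13 (YWHAZ). A test that misses the threshold does not show that a gene is constant, and TBP was the only gene of the 10 whose sign held in every alternative tried.

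Before normalization the same genes were brighter at 4 h with nearly everything else. Leaving out RN18S, the ratio of the mean intensities at 4 h and 16 h of the brightest probes lay between 1.26 (PPIA) and 1.56 (TBP), around the 1.46 of the median probe. Each 4 h array was above each 16 h array for H3F3B, HPRT1, TBP, B2M, PPIA and YWHAZ, which is 6 of 10 genes, and for 11 of the 23 probes above the noise limit. Among all probes above the limit, 49.2% were ordered this way. A difference in RNA per cell, in the amount hybridized and in scanning cannot be told apart here.

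The time change was also read separately on the 3 arrays high in 18S and ACTB and on the other 3, each with a single array at one of the time points and so with no test. For H3F3A the difference (4 h minus 16 h, log2) was -0.017 on the high arrays and -0.030 on the others, against 0.10 over all 6. For ACTB ILMN_2698799 it was 0.31 and -0.33, and for GAPDH 0.21 and -0.22. For RN18S ILMN_1230073 it was 0.32 and -0.53. For HPRT1 (0.054 and 0.17), TBP (0.11 and 0.059) and PPIA (0.098 and 0.072) the sign was the same on both sets. For H3F3B (0.033 and -0.053), B2M (-0.12 and 0.086) and YWHAZ (0.27 and -0.053) it was not.

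Further reference genes in common use were counted beside the list. Of 34 such genes, 32 had a probe by symbol, and 28 of these passed the noise limit on all 6 arrays. None was called by limma. Of all probes above the limit, 10.9% had an unadjusted p under 0.05 in limma. The 3 genes of the 28 that did were Tfrc, the transferrin receptor (0.43, SE 0.090, adjusted p 0.369), Hsp90ab1, a chaperone (-0.36, SE 0.13, adjusted p 0.811), and Ppib, a prolyl isomerase of the endoplasmic reticulum (0.22, SE 0.096, adjusted p 0.919). Their log2 changes ran from -0.36 to 0.43 with a median of -0.0082, beside a median of 0.0014 over all probes above the limit. The median SD over the 6 arrays was 0.156, beside 0.153 for all probes above the limit and 0.131 for the 9 protein-coding genes of the list. Of the 28, 4 were higher on the 3 arrays high in 18S and ACTB (Rps9, Tuba1a, Top1 and Rplp1), 2 were lower (Rpl19 and Ldha) and 22 overlapped, beside the 10.2% and 9.99% of all probes above the limit. The smallest SD after quantile normalization, 0.054, was that of Rps29, a protein of the small ribosomal subunit.

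The choice of reference was then carried to the gene that the study used as its positive control. Arntl, ILMN_2707510, read 140.7, 98.7 and 142.5 at 4 h, and 42.5, 50.3 and 37.8 at 16 h, with no overlap. As a plain log2 difference of the deposited intensities this was 1.54. Taken as a ratio to a reference gene within each array, the difference was 1.09 with ACTB ILMN_2698799, 1.18 with GAPDH, 0.98 with H3F3A and 1.15 with H3F3B. It was 1.05 with HPRT1, 0.90 with TBP, 1.13 with B2M, 1.20 with PPIA and 0.97 with YWHAZ. With RN18S it was 0.17.

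As an example, the log2 ratio of Arntl to H3F3B was -6.22, -6.52 and -6.12 at 4 h and -7.50, -7.42 and -7.40 at 16 h. To RN18S it was -2.09, 0.45 and -4.46 at 4 h and -4.17, -1.90 and -0.55 at 16 h, so that both the highest and the lowest value were 4 h arrays. With the brightest probe of each of the 9 protein-coding genes, every 4 h ratio was above every 16 h ratio. For ACTB this was ILMN_2698799, and these ratios were not taken with ACTB ILMN_1377923, which had a different array order. The exact two-sided permutation p was 0.1 for each of these, the smallest that 3 arrays against 3 allow, and 0.111 after Benjamini-Hochberg adjustment over the 10 ratios. With RN18S the time points overlapped and the exact permutation p was 1. In fold terms the difference ran from 1.87 (TBP) to 2.30 (PPIA) over the 9 protein-coding genes, and was 1.13 with RN18S. The SD of the ratio among the 16 h arrays was 0.043 with TBP, 0.056 with H3F3B and 0.39 with H3F3A, and among the 4 h arrays it was 0.19, 0.21 and 0.15. In limma on normalized values Arntl changed by 0.52 (SE 0.069, adjusted p 0.138), on a scale where the added offset shrinks the changes of dim probes.

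By the widest step in RN18S, 4 h replicate 3 alone was set apart. Only probes outside the list that passed the noise limit on all 6 arrays were ranked. The 10 with the widest gap above the other arrays had gaps from 0.51 to 0.77 on the log2 scale. They were those of LOC673501 (0.77), Elovl1 (0.71), Csda (0.68), Hnrpa1 (0.57), Prep (0.54), 5330417C22RIK (0.53), Slc25a24 (0.52), Eif3b (0.52), Npcd (0.52) and HNRNPA2B1 (0.51). With the 3 arrays set apart, among probes outside the list that passed the noise limit on all 6 arrays, the 10 with the widest gap between the 3 arrays high in 18S and ACTB and the others were named as most like them. Their gaps ran from 0.59 to 0.88 on the log2 scale. The widest were those of LOC269859 (ILMN_1252133, 463.1, 126.2 and 457.5 at 4 h and 249, 85.7 and 81.3 at 16 h) and LOC673501 (ILMN_1247996). LOC673501 read 185.4, 15.3 and 446.4 at 4 h, and 153, 39.7 and 12.7 at 16 h. This is the array order of RN18S ILMN_1230073, except that 4 h replicate 1 and 16 h replicate 1 changed places. The others were Peg10 (0.67), an imprinted gene derived from a retrotransposon, Hnrnph1 (0.63), an RNA-binding protein, E430003D02RIK (0.63), LOC100040413 (0.63), LOC333744 (0.62), Abcf2 (0.61), Bcam (0.60) and Tgoln1 (0.59). Over the 6 arrays, which share their brightness and scaling, Pearson's r with the mean of the RN18S probes was between 0.70 (LOC100040413) and 0.99 (LOC673501). With ACTB ILMN_1377923 it was between 0.85 and 0.98. These probes were chosen by their gap on the same arrays, which makes a high r likely beforehand, so that nothing is concluded from r.

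What the 3 arrays share besides these readings is not given in the sources used here. Slide, scan and RNA quality of the arrays were not given, so that their part in the RN18S and ACTB readings was not tested.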

How the data were processed

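Total RNA of 6 mGLUTag samples was hybridized to 1 mouse WG-6 V2 BeadChip array each. The deposited values are 1 intensity for each probe on each array, from which the authors had subtracted background without scaling between arrays. The scanner software is not given in the sources used here, and the table used here has no detection p-values or control probes. The number of arrays limits the precision.

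With limma 3.58.1 in R 4.3.3, normexp correction (offset 50), quantile normalization and log2 were applied in that order, and all probes were fitted with lmFit and eBayes, with time point as the only term, two-sided, with Benjamini-Hochberg adjustment (threshold 0.05). Quantile normalization removes any change that most probes share. The noise limit of an array was the 99th percentile of the absolute size of its values below 0. The brightest probe of a gene, by mean log2 value after normalization, stood for the gene. Ratios used deposited intensities. The script was tested on simulated data.

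The members, the lists and the rules for naming genes were chosen with earlier results of these data known. By rule, all member probes were accounted for, the 10 most like probes were those with the widest gap, for 4 h replicate 3 alone and, as an addition, for the 3 arrays, and further reference genes were given by counts. The symbols of 9 of the 10 genes matched a RefSeq table (GRCm38.p6), HPRT1 as a synonym, and RN18S did not match. No coordinates of probes were used, and no probe sequences were used here. Alternatives were other background corrections and scalings, a noise filter, trend and robust variance, the replicate number or the 18S separation as a block, leaving out each array, and the mean over a gene's probes.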

Additional observations from a re-analysis of the deposited data

How the results depend on the processing

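No member probe was called in limma under any alternative but one: with no between-array normalization 3 were, all higher at 4 h, when the median probe itself shifted by 0.39 on the log2 scale (0.30 with median scaling). Over all probes, the 4 calls became 29 with no background correction, 0 with an offset of 16, 832 with median scaling, 2 with cyclic loess, 2308 with no between-array normalization, 0 with the noise filter, 1 with trend and robust variance, 0 with the 18S block, 5 with the 18S and ACTB block, and 0 to 0 on leaving out an array. Whether same-numbered samples were paired is not stated in the sources used here. The deviations of same-numbered samples correlated at 0.25, 0.17 and -0.49, which does not settle it. With the replicate block 0 members and 0 of all probes were called. The probes that followed 18S and ACTB were 5. They were 9 with no between-array normalization, 6 with median scaling, 4 with cyclic loess and 4 with linear scaling. Of 180 gene values under alternatives, 32 equal the reported value by construction; of the other 148, 120 kept their sign and 28 turned. With median scaling ACTB became 0.35, GAPDH 0.26, H3F3B 0.29 and B2M 0.30. With no between-array normalization they became 0.44, 0.35, 0.38 and 0.39, and B2M passed the threshold (adjusted p 0.0390 in limma). PPIA became -0.039 with cyclic loess and -0.20 with linear scaling, and HPRT1 -0.046 with linear scaling. RN18S became -0.32 and YWHAZ -0.011 with the 18S block, which holds 4 h replicate 3 alone. A block of 1 array takes that array out of the time comparison, so that this is nearly the same alternative as leaving out 4 h replicate 3. RN18S became -0.10 and H3F3A -0.024 with the 18S and ACTB block, added after the data had been seen. The mean over a gene's probes gave 0.25 for ACTB, -0.021 for H3F3A and 0.037 for H3F3B. Leaving out an array gave -0.18 to 0.078 for ACTB, -0.19 to 0.068 for GAPDH, -0.025 to 0.23 for H3F3A, -0.087 to 0.073 for H3F3B, -0.31 to 1.83 for RN18S and -0.0098 to 0.26 for YWHAZ, the last 2 turning without 4 h replicate 3. Without turning, it gave -0.19 (without 4 h replicate 2) to -0.019 (without 4 h replicate 1) for B2M, 0.018 (without 4 h replicate 1) to 0.13 (without 4 h replicate 3) for TBP, 0.037 (without 16 h replicate 1) to 0.11 (without 16 h replicate 3) for PPIA and 0.058 (without 16 h replicate 2) to 0.16 (without 4 h replicate 3) for HPRT1. The cause of these turns was not tested. The time points of Arntl were apart against the brightest probes of 9 of the 10 references. They were apart against 7 with normexp and no between-array normalization, 8 with quantile normalized values and 8 with the mean over a gene's probes.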
